A study of Homo sapiens with 27 samples.

Results

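Transcripts were measured in human EA.hy926 cells grown for 48 h in direct contact with young mesenchymal stromal cells (MSCs), and in EA.hy926 cells grown alone. The comparison rests on 6 of the 27 libraries of the study: replicates 2 to 4 of young co-culture and replicates 2 to 4 of control. EA.hy926 is a hybrid line, a fusion of human umbilical vein endothelium with A549 lung carcinoma cells, so it carries genes of both parents. The MSCs were of the adipose line ASC52telo, immortalised with hTERT, were not treated with any drug, and were seeded at 1 MSC per endothelial cell. Control cells had no MSCs, no MSC matrix and no MSC medium. Further groups of 3 libraries each, again replicates 2 to 4, serve for comparison: endothelial cells in conditioned medium (CM) of young MSCs for 48 h, and endothelial cells on decellularised matrix (ECM) of young MSCs for 48 h. The senescent co-culture, in which the MSCs had been pretreated with mitomycin C, entered the test of co-culture against control only to estimate the spread between libraries. CM and ECM of such senescent MSCs, with senescent co-culture and control, entered the tests against young CM and young ECM for the same purpose. Both lines are single immortal lines, and the labels do not say whether replicates came from separate cultures, so the spread that p-values rest on is that of these libraries and may be technical only. The labels also do not say whether the endothelial cells were separated from the MSCs before RNA was taken. Replicate 1 was left out on both sides, because the control library held stromal RNA and the co-culture library was of low complexity.

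MSCs act on endothelial cells through secreted factors, through the matrix they lay down and through direct contact. Contact allows Notch signalling, in which a ligand on one cell binds a receptor on its neighbour, proteases of the receiving cell then cleave the receptor, and the released fragment joins the DNA-binding protein RBPJ to switch on HES and HEY genes. Other signals that reach the endothelium act through growth factor receptors and the serum response factor on immediate early genes, or through interferon receptors on antiviral genes.

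The 6 libraries held between 90449654 and 111512357 counts. The biological coefficient of variation between libraries of a group was 0.189 over the 9 libraries of the test, senescent co-culture included. Stromal transcripts were checked first, since MSC RNA could enter a co-culture library. The stromal identity list took 1.01 to 1.21% of counts in young co-culture and 0.644 to 1.09% in control, and 3.08% in control replicate 1. The groups overlapped, but within each replicate number co-culture was higher: 1.21 against 1.09% in replicate 2, 1.01 against 0.644% in replicate 3 and 1.11 against 0.821% in replicate 4. The list includes genes that control cells themselves express, among them SPARC and FN1 at means of 297 and 269 CPM in control. It also includes ENG, which the endothelial list holds too. The share is therefore no measure of MSC RNA alone. The endothelial list took 0.755 to 0.892% of counts in young co-culture and 0.398 to 0.551% in control, with no overlap. The haematopoietic list took under 0.001% in each of the 6 libraries. Ribosomal protein genes made up 27.8% of young co-culture replicate 1 but 5.92 to 9.27% of the replicates used. The scaling factor (TMM) was 0.459 for that library, against 1.059 to 1.074 for the co-culture replicates used. Its levels given below depend on this factor. In bulk RNA, fewer cells of a type and less RNA per cell cannot be told apart.

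Of 17729 genes tested, 1190 were higher and 526 lower in young co-culture than in control at an adjusted p under 0.05 (edgeR quasi-likelihood test, Benjamini-Hochberg), which is 9.68% of genes called, 6.71% higher and 2.97% lower. Among the 12402 genes with a control mean of 1 CPM (counts scaled to library size) or more, called here expressed in control, 707 were higher (5.7%) and 422 lower (3.4%), or 9.1% called. Among the 5327 genes below that level, called near absent in control, 483 were higher (9.07%) and 104 lower (1.95%). The median log2 fold change, young co-culture over control throughout, was 0.01 over all genes, −0.01 over the expressed and 0.15 over the near-absent ones. The genes nearest the dividing level were CXCL2 at 1.004 CPM and KCNJ4 at 1.006 CPM in control on the expressed side, and PROX1, a lymphatic endothelial transcription factor, at 0.999 CPM on the other.

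The expressed genes that rose were mostly protein-coding, 659 of 707, and their median level was 24.7 CPM in young co-culture against 12.7 CPM in control. Of these, 240 changed by more than 2-fold and 35 by more than 4-fold. Of the 422 expressed genes that fell, 341 were protein-coding, 134 changed by more than 2-fold and 16 by more than 4-fold. The near-absent genes that rose had a larger median change, 1.63, at far lower levels, with a median of 0.549 CPM in young co-culture against 0.189 CPM in control, and only 3 of the 483 reached 5 CPM. The libraries of the groups did not overlap for any gene called except 3 of the expressed genes that fell. With 3 libraries a side this largely follows from passing the test, and the share over all genes tested is not given. Separation of the groups, where stated below, describes levels and adds no support to a call.

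The number of calls depended on single libraries: 888 genes were called without young co-culture replicate 2, 885 without young co-culture replicate 4 and 909 without control replicate 4, and 954 when only these 6 libraries were fitted, while 859 in place of 526 genes fell without control replicate 2. Replicate 1 exists for control and young co-culture but not for senescent co-culture. With replicate 1 included, 45 genes were called, 35 higher and 10 lower, 44 of them among the 1716, and 338 of the 1716 changed sign. Scaling the libraries to equal endothelial list counts moved the median of all genes by −0.77 and gave 357 genes higher and 11183 lower, so 3.09% of calls were higher in place of 69.3%; every direction given below is relative to the whole transcriptome, not to the endothelial list.

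**Figure D1:**
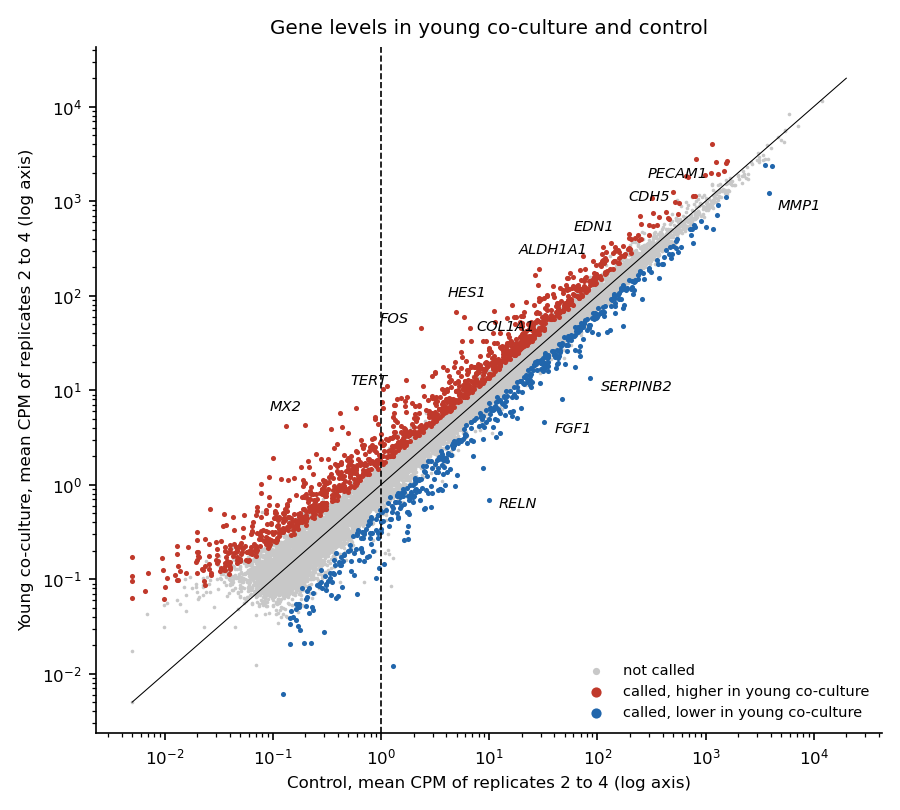
Each point is a gene, with its mean level in control (x axis, CPM, log axis) and in young co-culture (y axis, CPM, log axis) over replicates 2 to 4; values under 0.005 CPM are drawn at that level. The dashed line marks a control mean of 1 CPM and the solid line equal levels, and the 1190 red and 526 blue points are the genes called higher and lower, the near-absent ones lying left of the dashed line.

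Named genes were taken by a fixed rule from the largest changes of well-expressed protein-coding genes called without overlap between the groups. The 12 largest rises among genes expressed in control were FOS, HES1, COL1A1, POSTN, FOSB, EGR1, MPZL2, IFIT1, ALDH1A1, OAS2, JUP and IFITM1, with log2 fold changes of 2.62 to 4.29. They include 3 immediate early transcription factors, 1 Notch effector, 3 interferon-induced genes and 2 matrix genes of stromal cells. JUP, which encodes the junction protein plakoglobin, was at 178, 136 and 182 CPM in young co-culture replicates 2, 3 and 4, against 32.6, 17.9 and 29.6 CPM in control (2.64 ± 0.23 SE, adjusted p = 6.59e-05). MPZL2, a homophilic adhesion protein, had 7.41, 8.3 and 7.05 CPM in young co-culture and 0.839, 1.06 and 1.19 CPM in control (2.89 ± 0.18, adjusted p = 8.98e-06). For both genes the groups lay far apart, and neither was raised in control replicate 1, where JUP stood at 28 CPM and MPZL2 at 1.22 CPM.

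The 12 largest falls were RELN, FGF1, SERPINB2, IL1RL1, KCTD4, BCL2A1, CST4, TMEM158, MAP3K7CL, AOX1, MMP1 and PTPRR, with log2 fold changes of −3.83 to −1.61. RELN, the secreted glycoprotein reelin, was at 0.702, 0.567 and 0.796 CPM in young co-culture, against 11.7, 9.53 and 8.47 CPM in control (−3.83 ± 0.20, adjusted p = 5.22e-06). IL1RL1, the receptor of interleukin-33, had 7.21, 7.93 and 9.14 CPM in young co-culture and 40, 52 and 47.7 CPM in control (−2.51 ± 0.20, adjusted p = 4e-05). AOX1, an aldehyde oxidase, was at 18.2, 17.8 and 17.5 CPM in young co-culture, against 54.8, 71.6 and 60.1 CPM in control (−1.79 ± 0.14, adjusted p = 2.82e-05). Each of these 3 genes was lower in every co-culture library than in every control library. TMEM158 varied most within control, at 295 CPM in replicate 2 against 98.8 and 119 CPM in the others, and was between 39.3 and 57.9 CPM in young co-culture (−1.82 ± 0.35, adjusted p = 0.00807). CST4, a cystatin with close copies whose reads may be shared, is uncertain for that reason.

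**Figure D2:**
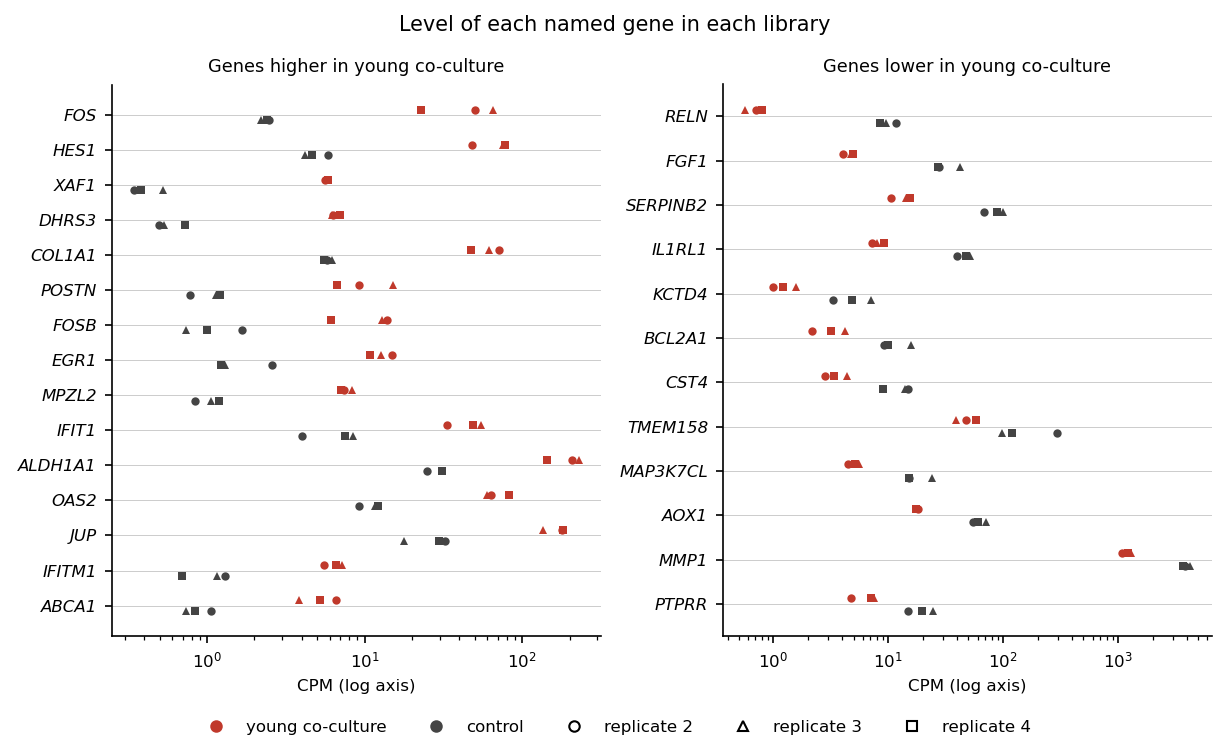
Level of each gene (CPM, log axis) in young co-culture replicates 2 to 4 (red, upper points of a row) and control replicates 2 to 4 (grey, lower points), with the replicate given by the marker shape. The left panel holds the 12 largest rises of expressed genes with the near-absent genes XAF1, DHRS3 and ABCA1, and the right panel the 12 largest falls. No row has overlapping groups, which the naming rule required.

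Of 20 Notch pathway genes tested, 5 rose and 0 fell by edgeR (0 also at an unadjusted p under 0.05 and by DESeq2), with a median log2 fold change of 0.43 against 0.01 over all genes. Here and for each list below, the counts are to be read against 6.71% of all genes called higher and 2.97% called lower. HES1, the transcriptional repressor that Notch activates in most cell types, had 48.1, 75.4 and 78.2 CPM in young co-culture, against 5.85, 4.19 and 4.65 CPM in control (3.79 ± 0.24, adjusted p = 9.4e-06). Its co-culture libraries all stood above the control ones, and replicate 1, left out of the test, lay at 79.8 CPM in young co-culture and at 18.6 CPM in control. DLL4, the ligand of endothelial tip cells, was at 3.36, 2.18 and 3.1 CPM in young co-culture and at 1.27, 0.741 and 1.02 CPM in control (1.51 ± 0.24, adjusted p = 0.00248), while young co-culture replicate 1 had 0.412 CPM of it. LFNG, a glycosyltransferase that modifies Notch receptors, rose by 0.98 ± 0.19 (adjusted p = 0.00751). The near-absent members that rose were DTX1, a Notch modulator, at 0.195 to 0.271 CPM in young co-culture against 0.0426 to 0.0722 CPM in control, and NOTCH3, a receptor of mural cells, at 0.525 to 0.824 CPM against 0.117 to 0.154 CPM. NOTCH3 stood at 132 CPM in control replicate 1, and its rise in co-culture was 0.409% of that excess. Among the members that did not pass were NOTCH1 at 0.63, HEY1 at 0.53, NRARP at 0.47 and JAG1 at 0.08. Without control replicate 2, 8 members rose, and with replicate 1 included HES1 alone did.

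The core promoter of HES1 is known for its paired RBPJ sites, and the letters TGGGAA, the core of such a site, were searched on both strands of the 250 bases before each gene start (RefSeq, GRCh38.p14). They were present in 21.1% of 27305 promoters. Of the members that rose, 4 matched the promoter table and 1, HES1, held them, and of the 11 matched members that did not pass, 2 did, HES4 and HEY2. The HES1 promoter is shown because HES1 was among the largest changes, with the 2 matches in capitals, starting 84 and 70 bases before the start:
HES1 (chr3:194135898-194136147, plus strand): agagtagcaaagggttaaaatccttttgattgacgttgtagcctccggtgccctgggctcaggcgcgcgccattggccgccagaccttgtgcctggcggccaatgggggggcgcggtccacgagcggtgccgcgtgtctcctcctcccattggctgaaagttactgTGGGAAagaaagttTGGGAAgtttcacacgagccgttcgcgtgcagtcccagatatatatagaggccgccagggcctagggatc

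Of 24 immediate early genes tested, 12 rose and 2 fell, with a median log2 fold change of 0.62. FOS, a subunit of the transcription factor AP-1, was at 50.3, 65 and 22.8 CPM in young co-culture, against 2.48, 2.21 and 2.39 CPM in control (4.29 ± 0.51, adjusted p = 0.000399). FOSB, a close relative, had 13.8, 12.9 and 6.14 CPM in young co-culture and 1.66, 0.731 and 1 CPM in control (3.27 ± 0.52, adjusted p = 0.00245). EGR1, a zinc finger factor of the early growth response, had 15, 12.8 and 10.9 CPM in young co-culture and 2.6, 1.31 and 1.23 CPM in control (2.91 ± 0.30, adjusted p = 0.000156). FOS and FOSB were lowest in co-culture replicate 4, which still lay above every control library. JUNB rose by 1.7 and the phosphatase gene DUSP1 by 1.52. Members that fell were FOSL1, another AP-1 subunit, at 135 to 171 CPM in young co-culture against 267 to 453 CPM in control (−1.28 ± 0.19, adjusted p = 0.00175), and SPRY2, a feedback inhibitor of growth factor receptors, at 31.7 to 36 CPM against 48.6 to 62.5 CPM (−0.72 ± 0.14, adjusted p = 0.00638). JUN at 0.34, MYC at 0.03 and ATF3 at 0.39 did not pass. FOS, EGR1 and IER3 were among the genes high in control replicate 1, at 8.96, 25.5 and 13.7 CPM there. Young co-culture replicate 1 had 16.6 CPM of FOS, above every control library, but 0.22 CPM of FOSB and 1.29 CPM of EGR1, below the control means of 1.13 and 1.71 CPM. With replicate 1 included, 0 members of this list were called higher (6 at an unadjusted p under 0.05).

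The CArG box, the site of the serum response factor, was found within 250 bases before the start of 1.14% of promoters. Among the 8 members that rose and matched the table, EGR1 alone held one, and none of the 8 matched members that did not pass did. Its 2 boxes start 105 and 83 bases before the start and are in capitals:
EGR1 (chr5:138465229-138465478, plus strand): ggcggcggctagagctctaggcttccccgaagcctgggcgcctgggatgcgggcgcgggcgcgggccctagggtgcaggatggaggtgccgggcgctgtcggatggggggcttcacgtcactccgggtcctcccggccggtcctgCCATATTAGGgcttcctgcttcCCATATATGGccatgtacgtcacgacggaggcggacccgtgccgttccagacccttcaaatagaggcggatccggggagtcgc

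In the interferon response list 24 of 48 genes rose and 1 fell, with a median log2 fold change of 0.74, and 17 of the 24 were expressed in control. MX2, an antiviral GTPase near absent in control, changed most, to 3.56, 4.34 and 4.76 CPM in young co-culture, against 0.126, 0.113 and 0.16 CPM in control (4.99 ± 0.28, adjusted p = 5.22e-06). XAF1, an interferon-induced pro-apoptotic gene also near absent in control, had 5.62, 5.77 and 5.85 CPM in young co-culture and 0.343, 0.525 and 0.383 CPM in control (3.79 ± 0.21, adjusted p = 5.22e-06). IFIT1, which binds viral RNA, had 33.4, 54.4 and 48.9 CPM in young co-culture and 4.03, 8.4 and 7.53 CPM in control (2.79 ± 0.28, adjusted p = 0.000142). All 3 were separated without overlap, as was OAS2, an RNA-sensing enzyme, at 59.9 to 81.9 CPM in young co-culture against 9.16 to 12.1 CPM in control (2.65 ± 0.18, adjusted p = 1.11e-05). IRF9, a component of the signalling complex, was near absent in control, at 0.453 to 0.848 CPM, and lay between 2.18 and 2.37 CPM in young co-culture (1.96 ± 0.28, adjusted p = 0.00117). The member that fell was USP18, a feedback inhibitor of the interferon receptor, at 17.2 to 21.2 CPM in young co-culture against 28.4 to 31.9 CPM in control (−0.64 ± 0.15, adjusted p = 0.0182), a call lost without young co-culture replicate 2 or 4 or control replicate 4. IFIT2 at 0.69, IFIT3 at 0.29 and MX1 at 0.60 did not pass, so the list was not uniform. IFITM1 shares sequence with its neighbours IFITM2 and IFITM3, and its value is uncertain.

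Of the 24 interferon genes that rose, 5 were high in control replicate 1, meaning at least 3 times the control mean there, and 19 were not. This is near the share over all genes called higher, 292 of 1190 or 24.5%. Young co-culture replicate 1 held 1.54 CPM of MX2, 1.18 CPM of XAF1 and 42.5 CPM of IFIT1. MX2 stood at 3.19 CPM in control replicate 1 and XAF1 at 13.3 CPM, so the rise in co-culture was 134 and 41.3% of the excess in control replicate 1. OAS2 and IFI6 rose by 463 and 537% of it. What stromal RNA adds to these genes was not tested. With replicate 1 included, 3 members were called higher.

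The letters GAAA followed by any 2 bases and GAAA again, which resemble the interferon-stimulated response element, lay on either strand of the 250 bases before the start of 3.07% of promoters. They were present in 11 of 19 matched members that rose and in 13 of 19 matched members that did not pass, so they did not separate the groups. The promoter of IFIT1 is printed as the largest expressed member with matches, and that of IFI6, a mitochondrial interferon-induced protein at 114 to 143 CPM in young co-culture against 27.9 to 28.3 CPM in control (2.21 ± 0.26, adjusted p = 0.000335), for its 3 matches. Capitals mark the letters searched, on the reverse strand in IFIT1; they start 116 and 103 bases before the start in IFIT1 and 156, 115 and 93 bases before it in IFI6:
IFIT1 (chr10:89392373-89392622, plus strand): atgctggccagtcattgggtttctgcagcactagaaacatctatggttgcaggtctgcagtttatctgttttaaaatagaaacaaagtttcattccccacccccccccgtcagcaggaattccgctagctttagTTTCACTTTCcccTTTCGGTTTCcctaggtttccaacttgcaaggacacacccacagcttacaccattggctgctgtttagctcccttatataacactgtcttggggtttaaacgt
IFI6 (chr1:27672193-27672442, minus strand): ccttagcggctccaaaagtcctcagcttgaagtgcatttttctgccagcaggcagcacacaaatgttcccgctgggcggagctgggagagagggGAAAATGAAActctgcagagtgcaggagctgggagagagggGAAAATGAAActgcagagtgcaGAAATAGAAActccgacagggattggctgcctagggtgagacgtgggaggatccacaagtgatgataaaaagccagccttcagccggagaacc

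Genes of endothelial identity were higher in young co-culture. Of 29 tested, 20 rose and 0 fell by edgeR (1 fell at an unadjusted p under 0.05 and 0 by DESeq2), with a median log2 fold change of 0.77, and all 20 were expressed in control. CDH5, the endothelial cadherin, was at 806, 596 and 712 CPM in young co-culture, against 302, 194 and 256 CPM in control (1.50 ± 0.18, adjusted p = 0.000398). PECAM1, an adhesion receptor of endothelial junctions, had 1280, 1250 and 1200 CPM in young co-culture and 404, 465 and 630 CPM in control (1.32 ± 0.16, adjusted p = 0.00047). KDR, the main VEGF receptor, had 28.3, 19.3 and 21.6 CPM in young co-culture and 8.72, 6.17 and 9.54 CPM in control (1.51 ± 0.20, adjusted p = 0.000889). The largest change of the list was in MMRN1, a multimerin stored in endothelial granules, at 24.9 to 38.7 CPM in young co-culture against 3.75 to 9.07 CPM in control (2.30 ± 0.28, adjusted p = 0.000449). VWF, the carrier of clotting factor VIII, rose by 1.57 ± 0.30 (adjusted p = 0.00656). The transcription factor genes FLI1, at 115 to 121 CPM in young co-culture against 50.7 to 59.6 CPM in control (1.14 ± 0.12, adjusted p = 0.000155), and ERG, at 109 to 124 CPM against 58.6 to 68.5 CPM (0.85 ± 0.13, adjusted p = 0.00223), rose with them. NOS3, the endothelial nitric oxide synthase, did not pass: it was at 341, 232 and 331 CPM in young co-culture and 610, 305 and 383 CPM in control, where the groups overlapped (−0.52 ± 0.23, adjusted p = 0.208). TIE1 at 0.35, CD34 at 0.11 and SOX17 at −0.23 did not pass either.

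Among the endothelial genes tested, 0 were high in control replicate 1, where CDH5 stood at 189 CPM and PECAM1 at 261 CPM. Young co-culture replicate 1 had 153 and 704 CPM of these genes, CDH5 below and PECAM1 above every library of control replicates 2 to 4. The place of PECAM1 depends on the scaling factor of that library, 0.459. KDR, VWF, MMRN1, FLI1 and ERG were at 1.62, 1.46, 1.48, 30 and 26.9 CPM in that co-culture library. These 5 also lay below every library of control replicates 2 to 4. With replicate 1 of control and young co-culture included, 0 members were called in either direction (9 higher at an unadjusted p under 0.05). The number that rose was 13 without young co-culture replicate 2, young co-culture replicate 4 or control replicate 4.

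Flow-responsive and vasoactive genes followed in part, with 10 of 26 higher, 2 lower and a median of 0.47. EDN1, the vasoconstrictor endothelin-1, was at 327, 340 and 306 CPM in young co-culture, against 105, 119 and 114 CPM in control (1.54 ± 0.12, adjusted p = 3.06e-05). ASS1, which makes the arginine precursor of nitric oxide synthesis, had 47.6, 66 and 58.7 CPM in young co-culture and 12, 15.6 and 16.6 CPM in control (1.97 ± 0.19, adjusted p = 0.000123). PTGIS, the prostacyclin synthase, was near absent in control, at 0.505 to 1.12 CPM, and rose by 1.89 ± 0.29 (adjusted p = 0.00222). The groups did not overlap for any of these 3 genes. The members that fell were ADORA2B, an adenosine receptor, by 1.12 ± 0.15 (adjusted p = 0.000692), and PTGS1, a cyclooxygenase, by 0.68 ± 0.18 (adjusted p = 0.0352), a call lost without replicate 3 or 4 of either group. KLF2 at 0.10 and KLF4 at 0.55, factors induced by laminar flow, did not pass.

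Angiogenic genes moved both ways, with 10 of 30 higher, 5 lower and a median of 0.40. PDGFB, the growth factor with which endothelial cells recruit mural cells, was at 62.3, 44.3 and 52.8 CPM in young co-culture, against 14.3, 6.98 and 12.9 CPM in control (2.23 ± 0.25, adjusted p = 0.000262). EFNA1, an ephrin ligand near absent in control, had 4.41, 6.27 and 4.32 CPM in young co-culture and 0.785, 1.01 and 0.83 CPM in control (2.52 ± 0.21, adjusted p = 4.89e-05). FGF1, a growth factor acting on all FGF receptors, had 4.08, 4.76 and 4.93 CPM in young co-culture and 27.7, 42.2 and 26.9 CPM in control (−2.80 ± 0.22, adjusted p = 3.39e-05). ESM1, a tip cell proteoglycan, lay between 90.3 and 95 CPM in young co-culture against 218 to 319 CPM in control (−1.46 ± 0.16, adjusted p = 0.000259), and FGF5, VEGFC and PLAUR fell by 1.37, 0.89 and 0.61, the PLAUR call being lost without young co-culture replicate 2 or 4. All libraries of these genes were separated by group. VEGFA, high in control replicate 1, rose by 0.58. EFNA1, FGF1 and FGF5 kept their calls with replicate 1 included.

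The stromal identity list had the highest share of members high in control replicate 1, 31 of the 40 tested. Of the 40, 23 rose and 1 fell, with a median log2 fold change of 1.09, and 21 of the 23 were high in that library. COL1A1, the main chain of collagen I, was at 71.7, 61.3 and 47.3 CPM in young co-culture, against 5.8, 6.18 and 5.5 CPM in control (3.37 ± 0.19, adjusted p = 5.22e-06), and at 4030 CPM in control replicate 1. TERT, the gene with which the MSC line was immortalised, had 7.97, 6.4 and 5.94 CPM in young co-culture and 1.87, 1.52 and 1.55 CPM in control (2.04 ± 0.20, adjusted p = 0.000118), and 633 CPM in control replicate 1. THY1, an MSC surface antigen near absent in control replicates 2 to 4, had 3.46, 6.12 and 3.71 CPM in young co-culture and 0.929, 0.947 and 0.926 CPM in control (2.25 ± 0.31, adjusted p = 0.000908), and 413 CPM in control replicate 1. The co-culture libraries were above the control ones and far below control replicate 1 in all 3 genes.

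For each of these 31 genes the difference between co-culture and control was set against the excess of control replicate 1 over the other controls. It amounted to between −5.26 and 59.6% of that excess, with a median of 1.39%. It was 1.35% for COL1A1, 0.811% for TERT, 0.847% for THY1, 1.38% for POSTN, 1.08% for PDGFRA and 1.39% for PDGFRB. Away from that level, and singled out for it, were COL5A1, a collagen chain also expressed in control cells, with 59.6%, SPARC, a matrix glycoprotein, with 26%, and FBN1, which encodes fibrillin-1, with 20.7%. COL5A1 was at 362, 183 and 249 CPM in young co-culture against 92.4, 33.6 and 93.1 CPM in control (1.86 ± 0.36, adjusted p = 0.00792). LOX, the lysyl oxidase, was the member that fell, to 32.6 to 39.9 CPM in young co-culture against 58.3 to 82 CPM in control (−1.07 ± 0.16, adjusted p = 0.00195), although it stood at 812 CPM in control replicate 1. TWIST1, a mesenchymal transcription factor, did not pass, at 0.0501, 0.144 and 0.0655 CPM in young co-culture and 0.0361, 0 and 0.0319 CPM in control (1.88 ± 0.70, adjusted p = 0.123). With replicate 1 included, where control replicate 1 carries these transcripts, the fold changes were −4.35 for COL1A1, −4.74 for TERT and −4.42 for THY1. None of the 3 was called in that fit (edgeR adjusted p = 0.393, 0.357 and 0.374). The rises thus hold for replicates 2 to 4 only. The calls of FBN1 and PDGFRA were lost without young co-culture replicate 2 or 4 and without young co-culture replicate 3 or control replicate 4, in that order.

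Collagens and contractile genes were raised in control replicate 1 as well. Of 24 collagen genes 10 rose and 0 fell by edgeR (1 fell at an unadjusted p under 0.05 and 0 by DESeq2), and 9 of the 10 were high in control replicate 1. Among them COL1A2 rose by 2.57, COL6A3 by 2.55 and COL3A1 by 2.33, while COL5A3, near absent in control, lay between 1.76 and 2.18 CPM in young co-culture against 0.0106 to 0.154 CPM in control and stood at 154 CPM in control replicate 1. Of 16 smooth muscle contractile genes 8 rose, 7 of them high in control replicate 1, and 1 fell. Their median log2 fold change was 0.68. Over the 11 expressed in control it was 0.24, and 4 of these rose and 1 fell. TAGLN, an actin-binding protein, was at 9.53, 15.2 and 8.67 CPM in young co-culture, against 3.11, 1.98 and 2.16 CPM in control (2.21 ± 0.31, adjusted p = 0.00117), and at 1100 CPM in control replicate 1. ACTA2, smooth muscle actin, did not pass, at 12.7, 12.1 and 15.7 CPM in young co-culture and 16.1, 11.4 and 11.9 CPM in control (0.05 ± 0.17, adjusted p = 0.906). The member that rose without being high in control replicate 1 was MCAM, an adhesion molecule shared by endothelial and mural cells, by 1.25, and the one that fell was SMTN, which encodes smoothelin, by 1.05, a call lost without young co-culture replicate 3.

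**Figure D3:**
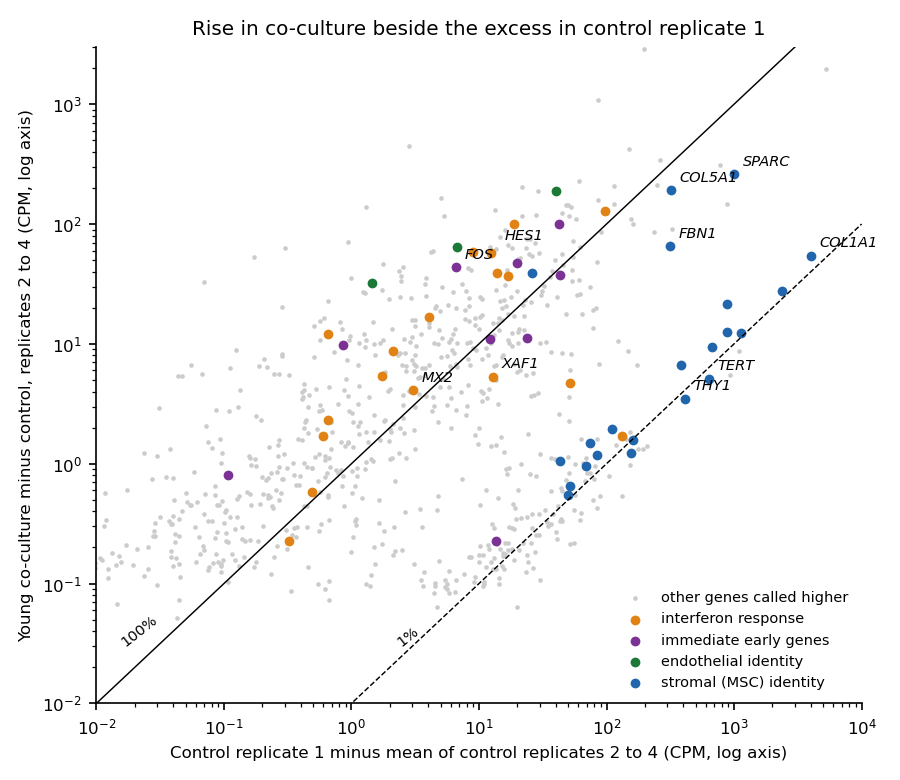
Each point is a gene called higher in young co-culture with an excess in control replicate 1; the x axis is control replicate 1 minus the mean of control replicates 2 to 4 and the y axis the young co-culture mean minus that mean (CPM, log axes). Lines mark a rise equal to 100% (solid) and 1% (dashed) of the excess: most stromal list genes lie near the dashed line, and COL5A1, SPARC and FBN1 with 59.6, 26 and 20.7% lie above it.

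Over all genes, 903 of 17729 were high in control replicate 1, or 5.09%. Among genes called higher in young co-culture the share was 24.5%, 292 of 1190, and among those called lower 4.18%. Of the 707 expressed genes that rose 81 were high in that library (11.5%, against 2.48% of all expressed genes), and of the 483 near-absent ones 211 (43.7%, against 11.2% of all near-absent genes). The rise in co-culture was larger than the whole excess in control replicate 1, or that library had none, for 564 of the 707 and for 277 of the 483. It was under 5% of the excess for 23 of the 707 and for 134 of the 483. Leaving the genes high in that library out, a count added after the data were seen, 626 expressed and 272 near-absent genes rose and 405 and 99 fell. How much of the near-absent rises is MSC RNA was not tested.

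The naming rule gave 3 protein-coding genes that were near absent in control and reached a mean of 5 CPM in co-culture, all of them high in control replicate 1. DHRS3, a retinaldehyde reductase, was at 6.33, 6.23 and 7.02 CPM in young co-culture, against 0.496, 0.536 and 0.723 CPM in control (3.49 ± 0.24, adjusted p = 1.29e-05). ABCA1, the cholesterol exporter, had 6.6, 3.81 and 5.21 CPM in young co-culture and 1.06, 0.731 and 0.84 CPM in control (2.57 ± 0.25, adjusted p = 0.000123). XAF1 was the other. In control replicate 1, DHRS3 stood at 3.26 CPM and ABCA1 at 6.74 CPM, so their rises were 222 and 73.9% of the excess there. ALDH1A1, a retinaldehyde dehydrogenase that makes retinoic acid, was expressed in control and rose to 207, 228 and 143 CPM in young co-culture, against 24.9, 31.2 and 30.9 CPM in control (2.74 ± 0.20, adjusted p = 1.86e-05).

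Junction genes were called in both directions, with 8 of 24 higher and 2 lower (median 0.32). Beside JUP and CDH5, PCDH1, a protocadherin, rose to 141 to 170 CPM in young co-culture against 43.1 to 59.1 CPM in control (1.53 ± 0.16, adjusted p = 0.000148). DSP, the desmosomal protein desmoplakin, rose by 3.25 to 0.955 to 1.28 CPM, and CDH11, a mesenchymal cadherin, by 2.58; both were near absent in control and stood at 65.2 and 70.3 CPM in control replicate 1. CLDN1, a tight junction claudin, fell by 1.07 ± 0.13 (adjusted p = 0.000511) and PKP2, a desmosomal plakophilin, by 0.51 ± 0.13 (adjusted p = 0.0352), where the PKP2 call was lost without any 1 of the co-culture libraries or control replicate 4. Integrin and focal adhesion genes had 9 of 31 higher and 0 lower by edgeR (0 also at an unadjusted p under 0.05 and by DESeq2; median 0.24), and 5 higher without young co-culture replicate 2 or 4. ITGB3, a subunit of the vitronectin receptor, was at 38.2, 23.4 and 32.9 CPM in young co-culture, against 14.9, 6.72 and 13.4 CPM in control (1.43 ± 0.29, adjusted p = 0.0101).

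Of the basement membrane genes 5 of 23 rose and 1 fell (median 0.73). HSPG2, the proteoglycan perlecan, was at 1420, 722 and 1080 CPM in young co-culture, against 464, 141 and 349 CPM in control (1.76 ± 0.38, adjusted p = 0.0149), with the lowest value of each group in replicate 3. NID1, the linker nidogen-1, had 68, 34.4 and 49.3 CPM in young co-culture and 20.7, 9.4 and 21.5 CPM in control (1.56 ± 0.33, adjusted p = 0.0129). The calls of this list depended on single libraries: 1 member rose without young co-culture replicate 2, 3 without young co-culture replicate 4, 2 without control replicate 4 and 11 without control replicate 2, while 9 rose with replicates paired. The NID1 call was lost without young co-culture replicate 2, and the HSPG2 call without young co-culture replicate 2 or control replicate 4.

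Matrix proteases and their inhibitors had 8 of 24 higher and 2 lower (median 0.46). Among the 16 members expressed in control, 3 were higher and 2 lower, with a median of 0.09. MMP2, gelatinase A, was at 2070, 1650 and 1780 CPM in young co-culture, against 771, 474 and 735 CPM in control (1.48 ± 0.18, adjusted p = 0.000464). MMP1, interstitial collagenase, went the other way, with 1090, 1310 and 1220 CPM in young co-culture and 3800, 4210 and 3680 CPM in control (−1.68 ± 0.14, adjusted p = 6.19e-05). SERPINB2, an inhibitor of urokinase, was at 10.6, 14.3 and 15.4 CPM in young co-culture, against 68.8, 99.8 and 87.8 CPM in control (−2.66 ± 0.19, adjusted p = 1.42e-05). None of these 3 overlapped between groups. The near-absent members ADAMTS2, ADAMTS4 and ADAMTS12 rose by 3.41, 2.49 and 2.23 and were all high in control replicate 1; the ADAMTS4 call was lost without young co-culture replicate 2 or 3 or control replicate 2 or 4. The number that rose was 4 without young co-culture replicate 2 or control replicate 4 and 5 without young co-culture replicate 4.

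In the TGF-beta list 13 of 30 rose and 2 fell (median 0.74), and 8 rose without young co-culture replicate 4 or control replicate 4. SNAI1, a repressor of epithelial genes, was at 64.4, 53 and 62.9 CPM in young co-culture, against 20.3, 10.5 and 19.6 CPM in control (1.85 ± 0.22, adjusted p = 0.000443). PMEPA1 and SNAI2, both near absent in control, rose by 2.99 and 2.53, and were both high in control replicate 1. The members that fell were INHBA, a subunit of activin A, at 16.5 to 23.1 CPM in young co-culture against 45.2 to 59.4 CPM in control (−1.39 ± 0.17, adjusted p = 0.000378), although at 260 CPM in control replicate 1, and BMP2, a bone morphogenetic protein near absent in both groups, by 1.32, a call lost without any 1 of the co-culture libraries or control replicate 2. CCN2 at 0.06, induced by TGF-beta in many cell types, did not pass. Of 23 YAP targets 5 rose and 2 fell (median 0.23), beside 6.71% of all genes called higher and 2.97% called lower. Without control replicate 4 the counts were 2 and 0, and 3 rose without control replicate 3 or young co-culture replicate 2 or 4. CCN1, a matricellular protein high in control replicate 1, rose by 0.89 ± 0.18 (adjusted p = 0.00946), and ANKRD1, an ankyrin repeat factor, fell by 0.87 ± 0.24 (adjusted p = 0.0428) with overlapping groups. Neither of the falls held without any 1 of the co-culture libraries.

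Secretory cytokine and chemokine genes had 10 of 26 higher and 3 lower (median 0.73). TNFSF15, an endothelial cytokine that restrains angiogenesis, was at 27.5, 25.5 and 23.7 CPM in young co-culture, against 4.08, 8.59 and 3.66 CPM in control (2.25 ± 0.27, adjusted p = 0.00037). IL6, at 6.69 CPM in control replicate 1, was near absent in the other controls and rose by 2.00 ± 0.24 to 2.36 to 3.23 CPM (adjusted p = 0.000371), and CXCL12, a chemokine of stromal cells, by 2.06 at 0.793% of its excess in control replicate 1. AREG, an EGF receptor ligand, fell by 1.95 ± 0.18 (adjusted p = 0.000106), with INHBA and HBEGF, HBEGF by 0.43; with replicates paired the HBEGF log2 fold change had an adjusted p of 0.0552, and the call was also lost on leaving out any 1 library other than control replicate 3. The number that rose was 5 without young co-culture replicate 3 or control replicate 4. Of 16 genes of NF-kB feedback and leukocyte adhesion 4 rose and 3 fell (median −0.14). SELP, the adhesion receptor P-selectin, had 17.8, 14.5 and 10.6 CPM in young co-culture and 3.03, 2.84 and 2.93 CPM in control (2.29 ± 0.21, adjusted p = 0.000103), and ICAM1, a ligand of leukocyte integrins, rose by 1.88 ± 0.21 (adjusted p = 0.000235) but stood at 25 CPM in control replicate 1. TRAF1, TNFAIP3 and PTX3, all induced by NF-kB, fell by 1.22, 0.80 and 0.92, the TRAF1 call being lost without young co-culture replicate 3 or 4 and the TNFAIP3 call without replicate 4.

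The list with the lowest median, −0.50, held targets of the oxidative stress factor NRF2 and of the aryl hydrocarbon receptor. Of its 24 genes 9 fell and 3 rose. TXNRD1, thioredoxin reductase, was at 524, 489 and 516 CPM in young co-culture, against 1020, 1160 and 1300 CPM in control (−1.18 ± 0.13, adjusted p = 0.000262). SLC7A11, the cystine importer, had 85.5, 61.8 and 77.2 CPM in young co-culture and 157, 160 and 206 CPM in control (−1.21 ± 0.20, adjusted p = 0.00356). NQO1, HMOX1 and GCLM, other NRF2 targets, fell by 0.57, 0.65 and 0.69. The members that rose were ALDH1A1 and the aryl hydrocarbon receptor targets CYP1A1, by 1.52 ± 0.25 (adjusted p = 0.00315), and CYP1B1, by 1.86 at 0.749% of its excess in control replicate 1. AKR1C1 fell by 1.30, but its close copies in the AKR1C family make the value uncertain.

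Other lists had fewer calls, and their shares are to be read against the 6.71% of all genes called higher and 2.97% called lower. Of 50 cell cycle genes 0 rose and 2 fell by edgeR (0 and 7 at an unadjusted p under 0.05, 0 and 3 by DESeq2; median −0.10), and both falls, among them that of BIRC5 by 0.46, were lost when young co-culture replicate 2, 3 or 4 or control replicate 4 was left out. Without control replicate 2 or 3, 5 members fell. Of 77 ribosomal protein genes 0 were called in either direction by edgeR, at an unadjusted p under 0.05 or by DESeq2, and likewise 0 of the 13 mitochondrial genes. Their medians were −0.16 and −0.17, and RPLP0 and MT-CO1, for example, had log2 fold changes of −0.06 ± 0.19 and −0.17 ± 0.22. Of 30 p53 targets 6 rose and 0 fell by edgeR (1 fell at an unadjusted p under 0.05 and 0 by DESeq2; median 0.15), led by TP53INP1 at 1.05 and GDF15 at 0.90, while CDKN1A at 0.12 and MDM2 at −0.07 did not pass. The number that rose was 2 without young co-culture replicate 2 or control replicate 4 and 3 without young co-culture replicate 3 or 4. Of 32 hypoxia and glycolysis genes 6 rose and 0 fell by edgeR (5 fell at an unadjusted p under 0.05 and 3 by DESeq2; median −0.10), and 2 rose without young co-culture replicate 2, young co-culture replicate 4 or control replicate 4. Without control replicate 3, 5 fell. DDIT4, an inhibitor of mTOR, was at 18.2, 17.5 and 16.9 CPM in young co-culture, against 3.85, 2.9 and 4.55 CPM in control (2.22 ± 0.19, adjusted p = 6.59e-05).

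Cholesterol genes had 2 of 25 higher, near the 6.71% of all genes, and 0 lower by edgeR (2 lower at an unadjusted p under 0.05 and 1 by DESeq2; median 0.13), namely the regulators SREBF1 by 1.63 and INSIG1 by 1.28; without control replicate 3, 4 rose. In the integrated stress and unfolded protein list 2 of 30 rose, again near the 6.71% of all genes, and 2 fell, against 2.97% of all genes (median 0.11): the chaperone genes PDIA4 and HSP90B1 by 0.56 and 0.52, which turned to −0.21 and −0.26 when scaled on the endothelial list, and SLC7A11 and PSAT1 downwards. Without young co-culture replicate 4 or control replicate 4, 0 members rose and 1 fell. Epithelial genes, carried by the A549 parent, had 3 of 9 higher and 0 lower by edgeR (0 also at an unadjusted p under 0.05 and by DESeq2; median 0.41). KRT7, a keratin of simple epithelia, was at 2380, 2760 and 2700 CPM in young co-culture, against 1370, 1070 and 1350 CPM in control (1.06 ± 0.14, adjusted p = 0.000705). KRT18 did not pass, at 791 to 1000 CPM in young co-culture and 623 to 745 CPM in control (0.41 ± 0.14, adjusted p = 0.0851), and with KRT8, which rose by 1.21, it has close copies that make its count uncertain. Of 9 adipocyte genes 2 rose, SCD and MEDAG, and 0 fell by edgeR (1 at an unadjusted p under 0.05 and 0 by DESeq2), the MEDAG call being lost without young co-culture replicate 3 or control replicate 2 or 4. In turn, 0 of 4 haematopoietic genes were called by edgeR (2 higher at an unadjusted p under 0.05 and 1 by DESeq2).

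**Figure D4:**
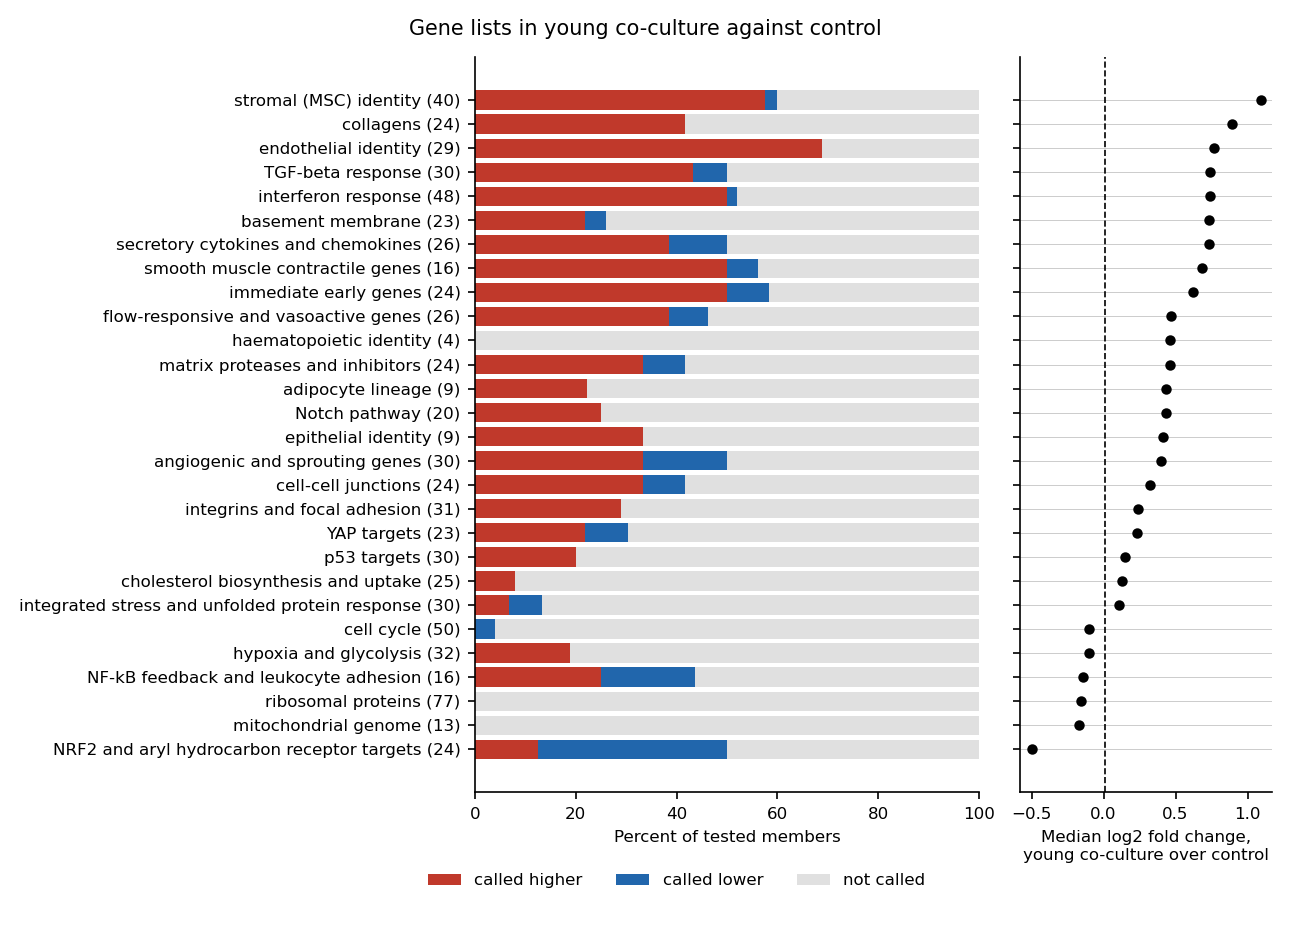
For each gene list (number of tested members in brackets), the left panel gives the percent of members called higher, called lower and not called in young co-culture against control, and the right panel the median log2 fold change, with a dashed line at the median of all genes, 0.01. Both panels pool members expressed in control with near-absent ones. Stromal, collagen and endothelial lists stand at the top with medians of 1.09, 0.89 and 0.77, and NRF2 and aryl hydrocarbon receptor targets at the bottom with −0.50.

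The co-culture was then set against the other ways of exposure to young MSCs, with the same co-culture libraries in each comparison. Against young CM 1139 genes were higher (6.16%) and 1006 lower (5.44%) of 18492 tested, or 11.6% called, and against young ECM 1496 were higher (8.09%) and 1448 lower (7.83%), or 15.9% called. The counts against CM moved with single libraries, to 475 higher and 302 lower without CM replicate 3 and to 2107 higher and 2091 lower without CM replicate 4. They also fell without CM replicate 2, to 567 and 250, without co-culture replicate 2, to 537 and 237, and without co-culture replicate 4, to 736 and 395, while without co-culture replicate 3 they were 949 and 670. Because the co-culture libraries are shared with the comparison with control, values are given side by side and no overlap is counted. HES1 averaged 67.3 ± 16.6 CPM in young co-culture, 12.4 ± 4.89 CPM in young CM and 4.52 ± 1.88 CPM in young ECM (SD, n = 3 each), and differed by 2.40 from CM (adjusted p = 6.32e-05) and by 3.86 from ECM (adjusted p = 1.52e-07). FOS averaged 46 ± 21.4 CPM in young co-culture, 3.04 ± 0.256 CPM in young CM and 5.45 ± 2.07 CPM in young ECM, with differences of 3.87 and 3.04 (adjusted p = 3.38e-05 and 6.53e-05). IFIT1 averaged 45.6 ± 10.9 CPM in young co-culture, 8.88 ± 1.10 CPM in young CM and 6.25 ± 1.77 CPM in young ECM, with differences of 2.32 and 2.83 (adjusted p = 4.77e-05 and 1.35e-06). In all 3 genes the level with direct contact was several times that with medium or matrix. CDH5 and PECAM1 were higher than in CM by 1.23 and 1.07 and higher than in ECM by 1.63 and 1.26 (adjusted p = 0.00151, 0.000303, 3.68e-05 and 1.64e-05).

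Other genes were close to their level in medium or on matrix. KRT7 averaged 2620 ± 202 CPM in young co-culture and 2240 ± 413 CPM in young CM (0.18, adjusted p = 0.443), and LOX averaged 35.2 ± 4.05 and 37.3 ± 3.14 CPM in these groups (−0.12, adjusted p = 0.651). SLC7A11, at 74.8 ± 12 CPM in young co-culture and 101 ± 21.6 CPM in young CM, did not pass either (−0.47, adjusted p = 0.14). ITGB3 averaged 31.5 ± 7.49 CPM in young co-culture and 27.0 ± 12.3 CPM in young ECM (0.19, adjusted p = 0.735). For these genes a difference was not detectable with 3 libraries a group, which does not show equal levels. NOS3 averaged 301 ± 60.3 CPM in young co-culture and 1400 ± 459 CPM in young ECM (−2.25, adjusted p = 0.000187).

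**Figure D5:**
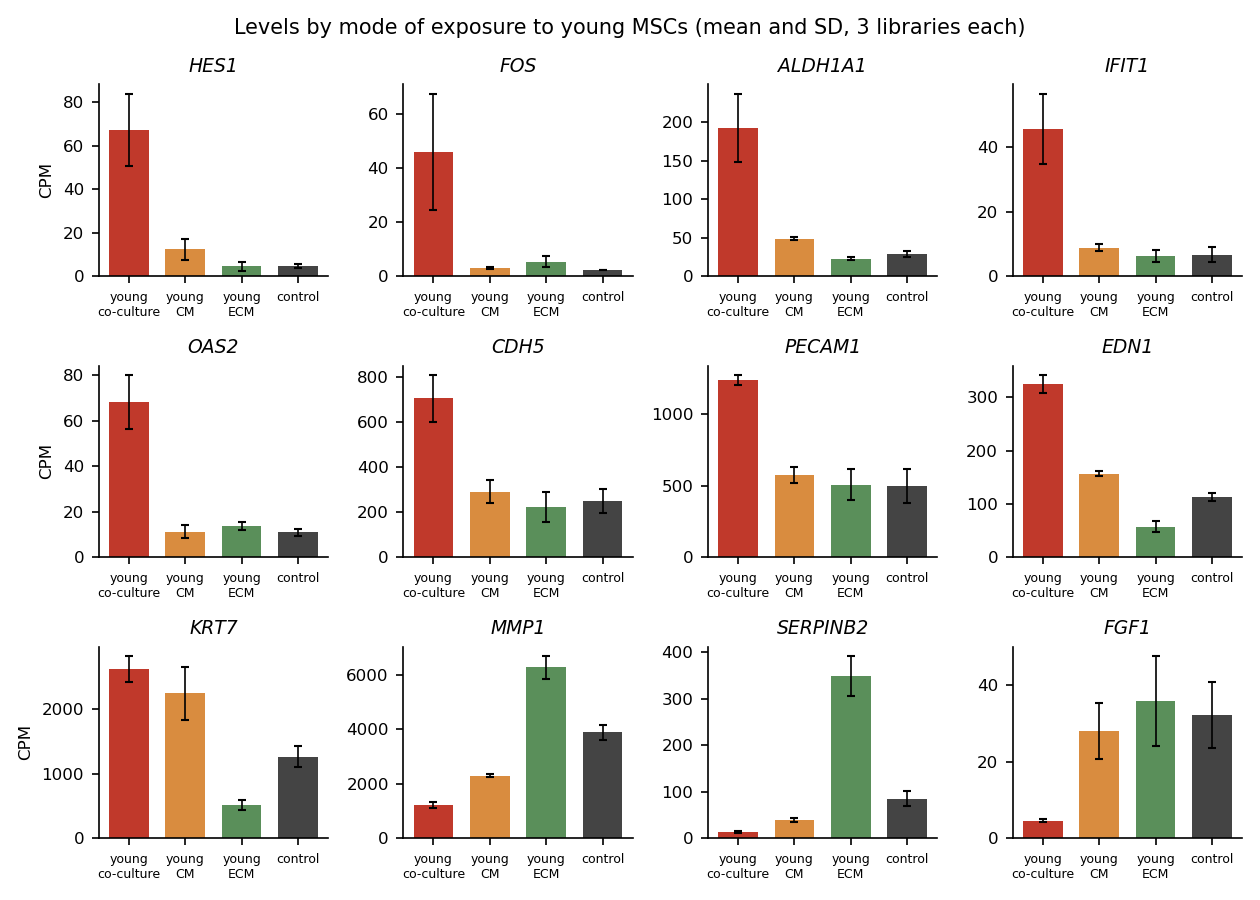
Mean level (CPM, linear axis from 0) of 12 genes in young co-culture, young CM, young ECM and control, with bars for the SD over 3 libraries. Co-culture bars are the tallest for HES1, FOS, ALDH1A1, IFIT1, OAS2, CDH5, PECAM1 and EDN1, KRT7 is close in co-culture and CM at 2620 and 2240 CPM, and SERPINB2 is tallest on ECM at 350 CPM.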

How the data were processed

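Poly(A) RNA was sequenced with a directional kit (NEBNext Ultra II), all libraries in run 73, per the labels. The deposited table holds raw read counts per gene for 60648 gene entries in 27 libraries; HISAT2 2.2.1, featureCounts 2.0.1 and build GRCh38 are named in the submitters' processing notes, while these give neither the annotation release nor the strand setting of counting. The extraction protocol names MSCs as the RNA source, whereas the cell type label says endothelial cell. Entries for 44 Y copies were left out, which left 60604 genes, of which 60462 had a symbol; columns of other samples numbered 0.

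Counts were tested with the quasi-likelihood F-test of edgeR 4.0.16 (R 4.3.3, limma 3.58.1) after filterByExpr with a minimum count of 10, TMM scaling and Benjamini-Hochberg adjustment over all genes tested, at 0.05. The test against control used 9 libraries, replicates 2 to 4 of young co-culture, senescent co-culture and control, which share 1 estimate of the spread. The tests against CM and ECM used 21 libraries, replicates 2 to 4 of every group of the study. These include CM and ECM of senescent, mitomycin C-treated MSCs, and all share the estimate of the spread. Levels are TMM-scaled CPM. Fold changes are log2 values of young co-culture over the other group, with the standard error taken from the fold change and the F statistic. A gene was called high in control replicate 1 when it reached 3 times the control mean there.

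Libraries of 1 group differed by more than counting noise (chi-square per degree of freedom of 59.1 to 491 over 6 pairs), so none was counted as a copy. Their 90449654 to 111512357 counts leave counting error small beside the spread between libraries for well-expressed genes. This does not hold for genes near absent in control, where levels rest on few reads. TNFSF10 and ADAMTS4, for example, stood at 0.00902 CPM in control replicate 2. Same-numbered libraries of co-culture and control deviated together (correlations of 0.58, 0.74 and 0.23), as did those of co-culture and ECM (0.76, 0.88 and 0.19), while nothing in the labels ties a number to a day or batch. Co-culture replicate 2 also deviated with control replicate 4 (0.29) and with ECM replicate 4 (0.75), above the same-numbered values of replicate 4. The other unmatched pairs reached at most 0.11 with control and 0.12 with ECM. On simulated data of 17640 genes for young co-culture against control, the test recovered 82% of the 100 2-fold and 100% of the 100 4-fold changes and made 10 false calls among 192. Changes were planted only in genes above a minimum mean count, with the same spread for every gene and independent libraries. These rates need not hold for the real calls, least of all for genes with few counts.

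Named genes were, among protein-coding genes called, with at least 5 CPM in a group and no overlap, the 12 largest rises and 12 largest falls of expressed genes and up to 10 near-absent genes, up to 4 called members of each of 28 gene lists, and fixed markers. FLI1, ERG, COL5A1, FBN1, SPARC, LOX, IFI6, members that fell in a mostly rising list, and members named as not passing were chosen after their values were seen. The comparison and the lists were chosen with earlier results of these data known. Alternatives were DESeq2 1.42.0, other scalings, no filter, other sets of libraries, a replicate block, each library left out and other dividing levels. Some genes are not reported here. Promoter sequences are from RefSeq (GRCh38.p14). Python 3.11.15, pandas 2.3.3 and matplotlib 3.10.9 were used.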

Additional observations from a re-analysis of the deposited data

Results flagged for a closer look

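Ribosomal protein genes took 27.8% of counts in young co-culture replicate 1, far from the 5.92 to 9.27% of replicates 2 to 4 (its gap to the nearest was 0.847 of the range over the 4 libraries, above the critical value of Dixon's test). Such a gap arises by chance in a small share of groups of this size. That library is outside the comparison.

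Young co-culture and young ECM lay on opposite sides of control, in every library of both groups, for 34 of the 148 named genes, and the difference between co-culture and ECM passed edgeR's test in each (adjusted p of at most 0.00295); 20 were higher and 14 lower in co-culture. Most named genes were chosen for a change between co-culture and control, some after their values were seen. The condition, here and for CM below, was thus partly met by selection, and the share over all genes tested is not given. MPZL2 was at 7.58 ± 0.644 CPM in young co-culture, 0.619 ± 0.00647 CPM in young ECM and 1.03 ± 0.178 CPM in control (SD, n = 3 each), a log2 difference of 3.58 from ECM (adjusted p = 4.27e-09). SERPINB2 was at 13.4 ± 2.49 CPM in young co-culture, 350 ± 43.1 CPM in young ECM and 85.5 ± 15.7 CPM in control, a difference of −4.74 (adjusted p = 5.33e-10). The others that were higher in co-culture than on ECM differed by 3.03 (ALDH1A1), 4.16 (DHRS3), 3.59 (MMRN1), 1.77 (KRT8), 2.32 (KRT7), 1.64 (KRT80), 1.29 (CSF1R), 2.19 (SCD), 1.22 (GDF15), 1.06 (PLK3), 3.77 (PMEPA1), 3.91 (EFNA1), 2.09 (ITGA11), 1.31 (ADM), 1.79 (INSIG1), 2.46 (EDN1), 1.17 (KRT18), 2.21 (MMP2) and 1.84 (MCAM). The others that were lower differed by −3.37 (IL1RL1), −3.05 (BCL2A1), −2.41 (MMP1), −2.32 (TRAF1), −2.87 (AKR1C1), −3.59 (AREG), −1.14 (USP18), −1.93 (INHBA), −1.14 (PLAUR), −1.69 (SPRY2), −0.71 (HBEGF), −1.47 (PTX3) and −1.88 (TNFAIP3).

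Young co-culture and young CM lay on opposite sides of control for 2 named genes, ITGA11 with a difference of 1.84 from CM (adjusted p = 0.000246) and NEDD9 with a difference of 1.45 from CM (adjusted p = 4.9e-06).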

How the results depend on the processing

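Against control, including replicate 1 left 35 genes higher and 10 lower (19 and 9 of the expressed genes, 16 and 1 of the near-absent ones), 159 and 30 against CM and 645 and 297 against ECM. Fitting only the 6 libraries gave 657 higher and 297 lower (356 and 239 expressed, 301 and 58 near absent), a smaller set of libraries by construction. Scaling on the endothelial list gave 357 higher and 11183 lower (144 and 9555 expressed, 213 and 1628 near absent). DESeq2 called 904 genes lower (766 expressed) and 1530 lower against CM. Without a filter 817 genes were lower (217 near absent) and 1815 were higher against CM. With the split at 0.5 CPM 59 near-absent genes were lower, and without the genes high in control replicate 1, an alternative chosen after seeing the data, 272 near-absent genes were higher. Leaving out 1 library at a time gave 589 to 1480 genes higher and 242 to 859 lower, 329 to 970 and 200 to 733 among expressed genes, 260 to 510 and 42 to 126 among near-absent genes, 475 to 2107 and 237 to 2091 against CM, and 1132 to 1417 and 996 to 1290 against ECM. The replicate block called 2053 genes against control (1409 higher, 644 lower), lost the call on the HBEGF log2 fold change (adjusted p = 0.0552) and gained that on the LYZ log2 fold change (adjusted p = 0.0375); of the named genes it changed no other call. Against CM it gave 2127 higher and 2286 lower, but same-numbered libraries did not all deviate together there (−0.14, 0.72 and 0.21), so they share only a number.

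With replicate 1 included the sign turned for COL1A1 (−4.35), POSTN (−4.31), COL1A2 (−4.38), COL6A3 (−3.83), COL3A1 (−4), COL5A3 (−4.63), CNN1 (−4.26), MYL9 (−4.70), NOTCH3 (−5.66), TAGLN (−4.15), MEDAG (−2.86), CXCL12 (−4.47), IER3 (−3.61), SNAI2 (−4.84), TGFB2 (−2.50), ARHGEF17 (−0.47), F3 (−4.29), CCN1 (−0.06), NID2 (−3.76), ADAMTS2 (−4.80), ADAMTS4 (−4.34), ADAMTS12 (−5.21), ITGA11 (−2.81), NEDD9 (−0.42), DSP (−4.13), CDH11 (−4.11), CYP1B1 (−4.51), THY1 (−4.42), PDGFRA (−3.64), PDGFRB (−3.44), TERT (−4.74), TWIST1 (−4.26), ACTA2 (−2.08) and FBN1 (−0.61), and for BCL2A1 (0.74), BIRC5 (0.12), USP18 (0.30), RPLP0 (1.88) and RPSA (1.66), while ADM stood at 0. None of these genes was called with replicate 1 included (edgeR adjusted p of 0.338 to 0.996). Endothelial scaling turned KRT80 (−0.06), LYZ (−0.11), CSF1R (−0.25), PLK3 (−0.04), KDM3A (−0.20), PDIA4 (−0.21), HSP90B1 (−0.26), KRT18 (−0.35) and ACTA2 (−0.71). Leaving out 1 library turned genes that were not called: MT-CO1 (−0.34 to 0.02, highest without control replicate 2), RPLP0 (0.05 without young co-culture replicate 2, 0.10 without control replicate 3) and ACTA2 (−0.08 to 0.22, lowest without young co-culture replicate 4, −0.05 without control replicate 3 or 4). The cause was not tested. Of 148 named genes DESeq2 changed the call of 1 and RLE size factors of 4.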
